A study of Mus musculus with 36 samples.

Results

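The genomic regions described here are 1 kb tiles that carried a low level of DNA methylation in wild type (WT) embryonic mouse brain. Tiles were taken from the autosomes if they held at least 5 CpGs that were each covered at least 5 times in all 4 WT libraries of the control diet (3 ppm folic acid), and if the methylation level pooled over these libraries lay from 10% to below 30%. Of 63512 tiles that met the coverage condition, 2495 (3.93%) had such a level. The tiles were thus chosen by their measured level in 4 of the libraries. The other tiles are called unmethylated (below 10%, 24768 tiles), intermediate (30 to below 70%, 5906 tiles) and methylated (70% or more, 30343 tiles) in what follows. Because the WT libraries of the 3 ppm diet chose the tiles, their own values are given as a description without a test.

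Methyl groups are placed on the cytosine of CpG dinucleotides by DNA methyltransferases and can be removed through the TET enzymes, which oxidise 5-methylcytosine. TET1 carries a domain that binds CpG-rich DNA. In mammalian tissue most CpGs are highly methylated and CpG islands at gene promoters are nearly free of it, while low levels are typical of island edges (shores), of weak or poised promoters and of enhancers. In a tissue of many cell types a low level can reflect a fraction of cells or of alleles, and bulk data cannot tell these apart.

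The experiment combined loss of Tet1 with different amounts of folic acid (FA) in the food of the dams, to look at their joint effect on the developing brain. Single brains at E11.5 were profiled by oxidative bisulfite reduced representation bisulfite sequencing (RRBS), which reads 5-methylcytosine without its oxidised forms at DNA cut by MspI and TaqI. All embryos were of the 129S6.cg Tet1<tm1Koh> strain, carried 0, 1 or 2 copies of this allele (WT, heterozygous or HET, knockout or KO), and developed in HET dams adapted to a diet with an excess of FA (30 ppm), a control amount (3 ppm) or a depleted amount (0.1 ppm). All diets contained the same antibiotic. The 36 libraries came from 4 litters per diet. Going by the library labels, the 30 ppm diet had 3 WT, 5 HET and 6 KO embryos. In the same order, the 3 ppm diet had 4, 3 and 5, and the 0.1 ppm diet had 2, 3 and 5. The paper differs for the 30 ppm diet, where it counts 6 HET and 5 KO embryos. The counts by label are used here. Each library is 1 embryo, and some embryos are littermates. Library depth ranged from 23.2 to 197.3 M CpG calls. The shallowest library, HET replicate 2 of the 0.1 ppm diet, was left out, so 35 embryos and 2 HET embryos on 0.1 ppm were compared.

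3 libraries stood apart from their genotype labels. At a CpG within Tet1 (mm10, chromosome 10, position 62884019) the methylation level was 0 to 7.32% in 7 WT libraries, 8.33 to 69.2% in 11 HET libraries and 69.6 to 100% in 15 KO libraries. The library labelled KO 30 ppm replicate 1 had 45.0% (20 reads), the library labelled WT 30 ppm replicate 2 had 36.36% (33 reads) and the library labelled WT 0.1 ppm replicate 2 had 40.0% (15 reads), all within the HET range. For the first of these, the sample list of the study gives the genotype as HET, against its label. It gives both other libraries as WT, like their labels. For these the departure rests on this CpG and on the tile levels described below. All 3 were kept under their labels. Values without them are given beside most results they enter, and on 0.1 ppm such values rest on a single WT embryo.

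Stretches of 6 of the tiles are printed here because they show gains that were far above the median tile and, for contrast, a tile without one, and all were named by the rule given with the processing. They are the plus strand of GRCm38 (mm10), from the RefSeq assembly, 5′ to 3′, and capitals mark the CpGs that were covered at least 5 times in all 35 embryos. 5 of them gained methylation in KO brains: the end of the first coding exon of Npy and the start of its intron (chr6:49823700-49823808), a coding exon of Sema5b (chr16:35660170-35660328), the coding exon of Kcna5 (chr6:126534548-126534636), an intron of Lhx3 (chr2:26205781-26205897) and an intron of Ksr2 (chr5:117534321-117534488). The sixth, an exon of Stx1a with the end of the intron before it (chr5:135042044-135042202), did not.
Npy: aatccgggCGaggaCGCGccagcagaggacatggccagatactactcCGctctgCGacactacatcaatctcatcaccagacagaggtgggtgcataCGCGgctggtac
Sema5b: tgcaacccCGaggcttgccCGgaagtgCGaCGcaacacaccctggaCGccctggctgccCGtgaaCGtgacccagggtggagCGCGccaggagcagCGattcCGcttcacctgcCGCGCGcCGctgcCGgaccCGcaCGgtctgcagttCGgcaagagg
Kcna5: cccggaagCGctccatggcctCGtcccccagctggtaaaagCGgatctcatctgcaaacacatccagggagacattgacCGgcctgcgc
Lhx3: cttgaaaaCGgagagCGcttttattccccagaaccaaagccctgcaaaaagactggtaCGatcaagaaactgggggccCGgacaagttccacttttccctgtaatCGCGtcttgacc
Ksr2: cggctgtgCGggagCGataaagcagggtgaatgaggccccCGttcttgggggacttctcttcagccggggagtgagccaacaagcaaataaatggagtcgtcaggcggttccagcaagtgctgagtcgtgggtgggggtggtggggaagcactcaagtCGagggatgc
Stx1a: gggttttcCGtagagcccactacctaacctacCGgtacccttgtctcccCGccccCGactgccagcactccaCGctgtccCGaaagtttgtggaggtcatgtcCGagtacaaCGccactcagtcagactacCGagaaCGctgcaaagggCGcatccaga

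Over the capitalised CpGs of these stretches, the mean level on the 30 ppm diet was 28.3% in WT and 69.9% in KO embryos for Npy (7 CpGs), which encodes the signalling peptide neuropeptide Y. For Sema5b (19 CpGs), a semaphorin that guides axons, it was 14.0% and 50.7%. For Kcna5 (4 CpGs), a voltage-gated potassium channel, it was 15.04% and 45.0%. For Lhx3 (6 CpGs), a LIM homeobox factor of motor neurons and the pituitary, it was 14.1% and 35.7%, and for Ksr2 (4 CpGs), a scaffold of the RAF and MEK kinases, 11.7% and 52.2%. Each of these CpGs was higher in KO than in WT, in Sema5b 19 of 19 and in Npy 7 of 7. With the 3 libraries left out, the means of WT and KO were 21.5 and 78.4% in Npy, 9.33 and 58.4% in Sema5b, 9.83 and 50.12% in Kcna5, 11.3 and 39.5% in Lhx3, and 5.23 and 59.9% in Ksr2. The gain was not even along a stretch: in Lhx3 the differences between KO and WT ran from 4.57 to 38.1 points, and in Npy from 29.7 to 48.3 points. Stx1a, a syntaxin of the synaptic release machinery, had a mean of 14.5% in WT and 15.3% in KO over 11 CpGs, of which 7 were higher in KO, and 14.8% and 15.6% without the 3 libraries.

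In their sequence the lowly methylated tiles lay between the unmethylated and the methylated tiles that met the coverage condition. They held a median of 24 CpGs per kb (interquartile range 19 to 33), against 50 in unmethylated, 20 in intermediate and 20 in methylated tiles. Their median GC content was 52.0% and their observed to expected CpG ratio 0.380, against 56.9% and 0.642 in unmethylated and 49.0% and 0.332 in methylated tiles. A promoter was defined as 1 kb to either side of the start of any GENCODE transcript, also one that starts inside a gene. By this, 1163 of the tiles (46.6%) overlapped a promoter, 321 (12.9%) another exon, 446 (17.9%) an intron and 565 (22.6%) lay between genes. In comparison, 84.4% of unmethylated and 19.12% of methylated tiles overlapped promoters. As a share of all tiles of a feature, 3.96% of promoter, 3.07% of exon, 4.37% of intron and 4.2% of intergenic tiles were lowly methylated, so promoters were not set apart by this count.

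By distance to the nearest start site of a protein-coding gene, the share of tiles that were lowly methylated was 3.53% from 0 to 1 kb upstream and 3.52% from 0 to 1 kb downstream. It was 5.89% from 1 to 2 kb upstream and 5.64% from 1 to 2 kb downstream, and 3.90% and 3.95% at over 5 kb on either side. The share was thus highest at the flanks of start sites. Of 1173 covered tiles that directly adjoined a lowly methylated tile, 67.7% were unmethylated, 8.87% lowly methylated, 12.8% intermediate and 10.7% methylated, and 782 of the tiles touched an unmethylated one. The share of covered tiles that were lowly methylated ran from 2.78% on chromosome 6 to 4.91% on chromosome 8.

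A low tile level was seldom a uniform one. Among the 27788 CpGs of these tiles, 41.29% were themselves below 10% in the WT libraries of the 3 ppm diet, 38.1% lay from 10 to below 30%, 17.1% from 30 to below 70% and 3.53% at 70% or more. The median standard deviation among the CpGs of a tile was 13.02 points, against 0.695 in unmethylated, 16.1 in intermediate and 4.76 in methylated tiles. In 393 tiles every CpG lay from 10 to below 70%, and in 493 tiles CpGs below 10% stood beside CpGs at 70% or more. Tile levels had a median of 18.2% (interquartile range 13.6 to 23.6%), with 848 tiles from 10 to below 15% and 479 from 25 to below 30%. All 4 libraries of the rule put 1354 of the tiles within the limits on their own. The pooled level is weighted by reads. WT 3 ppm replicate 1, the deepest library, had a median of 789 reads per tile, against 275, 144 and 176 in replicates 2, 3 and 4. A choice on replicates 2, 3 and 4 alone gave 2524 tiles, of which 2269 were among those described here. The tiles nearest to the limits, by the nearest protein-coding gene, were Slc37a1 (9.98%) and Pcsk1 (9.98%) just under and Smarcal1 (10.0%) and Rpl3 (10.0%) just over the lower one, and Irf2bp2 (29.96%) and Spo11 (29.99%) just under and Rcan2 (30.0%) and Clip2 (30.02%) just over the upper one.

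In KO embryos the lowly methylated tiles stood at a higher level on every diet. Mean methylation was computed per embryo over the 1915 tiles, with 17306 CpGs, that had at least 3 CpGs covered in all 35 embryos. The KO embryos on 3 ppm had 33.1, 33.5, 33.9, 34.2 and 35.9%, and those on 0.1 ppm 33.5, 33.9, 34.26, 34.6 and 35.02%. On 30 ppm, 5 KO embryos had 31.9, 32.8, 32.8, 32.9 and 33.3%, and replicate 1 had 20.3%. The WT embryos on 3 ppm, which chose the tiles, had 16.7, 17.4, 17.5 and 18.3%. WT embryos that the rule did not use had 17.05, 17.3 and 23.7% on 30 ppm, where the last is replicate 2, and 17.9 and 21.6% on 0.1 ppm, where the last is replicate 2. With the exception of KO 30 ppm replicate 1, which lay among the HET embryos, every KO embryo was higher than every WT and HET embryo.

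HET embryos lay between the other genotypes. They had 20.1, 20.1, 20.2, 21.1 and 21.6% on 30 ppm, 20.8, 21.2 and 22.2% on 3 ppm, and 21.9 and 22.1% on 0.1 ppm. These values were higher than those of all WT embryos other than WT 30 ppm replicate 2 and WT 0.1 ppm replicate 2. The group means were 19.3% ± 3.76 (SD, n = 3) for WT, 20.7% ± 0.693 (n = 5) for HET and 30.7% ± 5.10 (n = 6) for KO on 30 ppm, and 17.2% and 32.8% for WT and KO without replicate 2 and replicate 1. They were 17.4% ± 0.656 (n = 4), 21.4% ± 0.734 (n = 3) and 34.13% ± 1.08 (n = 5) on 3 ppm. On 0.1 ppm they were 19.8% ± 2.59 (n = 2), 22.0% ± 0.206 (n = 2) and 34.26% ± 0.583 (n = 5).

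**Figure D1:**
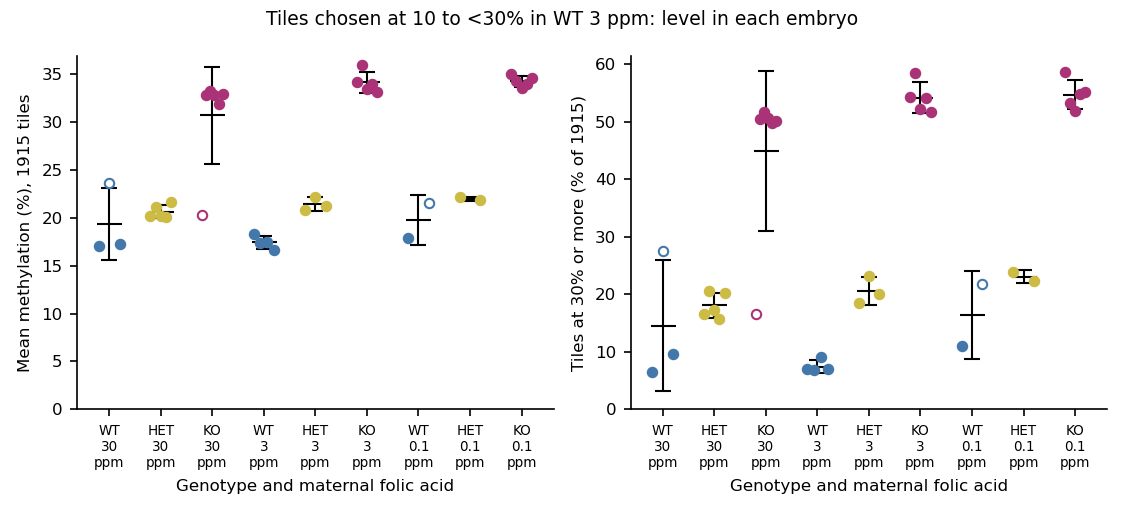
Mean methylation of the 1915 lowly methylated tiles covered in all embryos (left, %) and share of these tiles at 30% methylation or more (right, %), by genotype and maternal FA. Points are embryos, open points the 3 libraries at odds with their labels, and bars the group mean ± SD, and apart from KO 30 ppm replicate 1 (20.3%) the KO embryos lie at 31.9% or above while no WT or HET embryo exceeds 23.7%.

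The difference between KO and WT group means was 11.4 points (SE 3.01) on 30 ppm, 16.7 points (SE 0.584) on 3 ppm, as a description, and 14.5 points (SE 1.85) on 0.1 ppm. The shift moved many tiles out of the low class. Of the 1915 tiles, a mean of 44.9% (30 ppm), 54.2% (3 ppm) and 54.75% (0.1 ppm) stood at 30% or more in KO embryos, against 14.6%, 7.44% and 16.4% in WT and 18.1%, 20.6% and 23.1% in HET embryos. A level of 50% or more was reached by 14.5, 19.9 and 19.7% of the tiles in KO and by 0.905, 0.601 and 1.12% in WT embryos. Levels below 10% were also less frequent in KO, at 7.95, 6.56 and 6.09% of tiles against 17.1, 18.5 and 16.6% in WT. When the 3 libraries were left out, 50.6% of tiles stood at 30% or more in the 5 KO embryos and 8.04% in the 2 WT embryos of the 30 ppm diet, and 11.1% in the remaining WT embryo on 0.1 ppm. The shares at 50% or more were then 17.2, 0.601 and 0.783%, and those below 10% were 6.80, 20.9 and 19.7%.

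Among KO embryos the level did not follow the phenotype labels in 1 direction. Without replicate 1, the means on 30 ppm were 32.4% in embryos labelled norm (n = 2), 32.8% in the embryo labelled inHB and 33.1% in embryos labelled NTD (n = 2). On 3 ppm the order was the opposite, with 34.53% for norm (n = 3), 33.9% for inHB (n = 1) and 33.1% for NTD (n = 1), and likewise on 0.1 ppm with 34.8% (n = 2), 34.26% (n = 1) and 33.7% (n = 2). On 0.1 ppm the embryos labelled norm (34.6 and 35.02%) and NTD (33.5 and 33.9%) did not overlap, while on 30 ppm they did. The NTD embryos on 0.1 ppm were littermates and the norm embryos came from other litters, so label and litter cannot be told apart there. With 1 to 3 embryos per label these differences were not tested.

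Tile by tile, the comparison of KO with WT asked which lowly methylated tiles changed upon loss of TET1. A tile was called hypermethylated (hyper) or hypomethylated (hypo) at an adjusted p below 0.05 in a quasi-binomial test and a difference of group means of at least 10 points. On 0.1 ppm, 1089 of 2179 tested lowly methylated tiles were hyper in KO, where 11.2% of all tested tiles were, and 3 were hypo, where 0.0173% of all were. The median difference over the 2221 lowly methylated tiles with at least 3 shared CpGs was 11.8 points (interquartile range 5.23 to 21.5), 92.9% of them were higher in KO, and the median over all tiles was 1.94 points. On 30 ppm, 682 of 2136 tested tiles were hyper and none was hypo, where 5.66% of all tested tiles were hyper. The median difference was 9.00 points (interquartile range 4.11 to 17.01) over 2170 tiles, against 1.04 points over all tiles. On both diets the share of lowly methylated tiles called hyper was therefore above that of all tested tiles, some of which lie outside the coverage rule. Tiles above 90% have under 10 points left to gain. On 30 ppm 0.0207% of tiles from 90 to 95% in WT 3 ppm embryos and 0% of those above 95% were hyper. What this limit adds to the contrast was not tested.

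The count on 30 ppm depended on single embryos. Without the 3 libraries at odds with their labels, 1238 tiles were hyper and 3 hypo of 2138 tested, at a median difference of 12.8 points and with 15.9% of all tested tiles hyper. On 0.1 ppm, leaving out WT replicate 2 gave 1135 hyper and 9 hypo tiles of 2203 tested, at a median of 13.6 points and with 13.4% of all tested tiles hyper, and a single WT embryo then remained. Without WT 30 ppm replicate 1 the count on 30 ppm fell to 2, and without KO 30 ppm replicate 1 it was 1052. limma on transformed tile levels called 0 of these tiles on 30 ppm and 725 on 0.1 ppm.

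On the control diet KO embryos were compared with HET embryos, because the WT embryos there had chosen the tiles. Of 2086 tested tiles 979 were hyper and 1 was hypo in KO, where 7.79% and 0.0184% of all tested tiles were. The median difference was 10.2 points (interquartile range 4.38 to 19.2) over 2142 tiles and 0.976 points over all tiles. Against HET, KO embryos had 743 hyper tiles of 2244 tested on 30 ppm, where 4.37% of all were, with a median of 7.64 points over 2284 tiles and no hypo tile. Without KO replicate 1 these were 1046 of 2251, with 8.86% of all tiles hyper. On 0.1 ppm 941 of 2190 were hyper and 2 hypo, where 6.76% and 0.0391% of all were, with a median of 9.82 points over 2250 tiles. Per embryo the tested tiles had median read counts between 137 and 194 over 7 to 8 CpGs. Where called hyper, the median difference of a lowly methylated tile was 20.6 points (KO against WT, 30 ppm), 21.7 points (KO against WT, 0.1 ppm) and 20.1 points (KO against HET, 3 ppm).

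Many of the same tiles were involved on each diet. KO against WT on 30 ppm, KO against WT on 0.1 ppm and KO against HET on 3 ppm share no embryo. Of 1890 lowly methylated tiles tested in all 3 comparisons, 564 (29.8%) were hyper in all 3, 284 (15%) in 2, 293 (15.5%) in 1 and 749 (39.6%) in none. Over all 44434 tiles tested in all 3, 2118 (4.77%) were hyper in all 3, and the lowly methylated tiles made up 26.6% of these. Of 2010 lowly methylated tiles tested on both 30 and 0.1 ppm, 607 were hyper in both. This is 91.8% of the 661 on 30 ppm and 58.8% of the 1032 on 0.1 ppm. Of 1974 tested on both 0.1 ppm and the control diet, 819 were hyper in both, 80.3% of 1020 and 86.5% of 947. The overlap of these pairs was not counted over all tiles. Without a threshold, 1674 of 1981 tiles (84.5%) were higher in KO in all 3 comparisons and 19 (0.959%) were lower in all 3, against 47.0% higher in all 3 among all 77461 tiles. Leaving out the 3 libraries, 769 of 1883 tiles (40.8%) were hyper in all 3 comparisons, where 7.65% of all tiles were, and the 30 ppm calls shared with 0.1 ppm were 947, or 79.2% of 1195 and 88% of 1076.

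The size of the difference followed the starting level of a tile. In bins of 5 points of the level in WT 3 ppm embryos, the median difference on 30 ppm was 0.107 points below 5%, 5.10 points from 5 to 10%, 7.602 points from 10 to 15% and 11.6 points from 25 to 30%. It was 12.3 points from 30 to 35%, and then fell to 9.42 points from 50 to 55%, 5.05 points from 70 to 75% and 0.259 points above 95%. On 0.1 ppm the median was 9.94 points from 10 to 15% and 14.2 points from 25 to 30%, with its highest value of 14.6 points from 35 to 40%. For KO against HET on 3 ppm the highest value was 13.2 points from 30 to 35%. Computed without the 3 libraries, the median was 10.9 points from 10 to 15% and 15.4 points from 25 to 30% on 30 ppm, and 11.7 and 16.6 points on 0.1 ppm. Its highest values were then 16.9 points from 35 to 40% on 30 ppm and 18.2 points from 40 to 45% on 0.1 ppm. The lowly methylated tiles therefore lay on the rising side of the curve, below its peak.

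**Figure D2:**
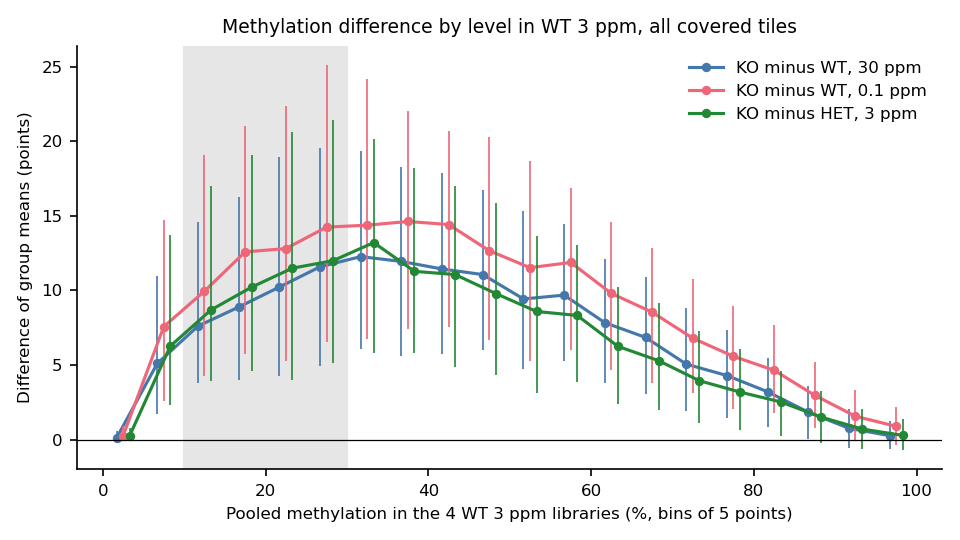
Median difference of group means (y axis, percentage points) over all autosomal tiles in bins of 5 points of the pooled methylation in WT 3 ppm embryos (x axis, %), for KO against WT on 30 and 0.1 ppm and KO against HET on 3 ppm, with vertical lines for the interquartile range. The curves rise through the lowly methylated range, to 11.6 points from 25 to 30% on 30 ppm, and return to near 0 in the highest bin.

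By class, the share of tiles with at least 3 shared CpGs that were hyper on 30 ppm was 31.4% in lowly methylated, 24.5% in intermediate, 2.27% in unmethylated and 1.27% in methylated tiles. The corresponding shares were 49.0, 41.1, 4.39 and 3.98% on 0.1 ppm, and 45.7, 29.8, 3.76 and 1.04% for KO against HET on 3 ppm. The lowly methylated class had the highest share in each of these comparisons with all libraries. The intermediate class was mixed, however. Its tiles from 30 to 35% had 34.2, 52.7 and 51.3% hyper, above the lowly methylated class, and those from 65 to 70% had 16, 28.5 and 14.3%. The order of the classes did not hold on 30 ppm without the 3 libraries, with 56.9% in lowly methylated and 57.26% in intermediate tiles. Unmethylated and methylated tiles then had 4.30 and 5.67% on 30 ppm. The median difference of the lowly methylated class was close to that of the intermediate class against WT, with 9.00 and 9.16 points on 30 ppm and 11.8 and 11.1 points on 0.1 ppm. It was larger for KO against HET on 3 ppm, with 10.2 and 7.87 points. Its medians and those of the intermediate class without the 3 libraries were 12.81 and 12.83 points on 30 ppm and 13.6 and 14.4 points on 0.1 ppm. Classes differ in the number of CpGs and reads per tile, with medians of 8 CpGs and 1416 pooled WT reads in lowly methylated and 7 CpGs and 1103 reads in intermediate tiles, and the part of depth in these shares was not tested.

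**Figure D3:**
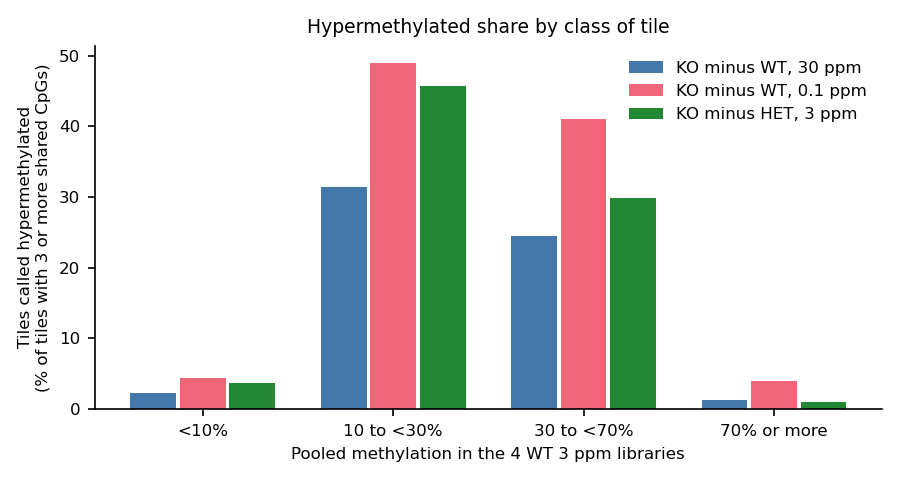
Share of tiles called hypermethylated in KO (y axis, % of tiles with 3 or more shared CpGs) by the class of the tile in WT 3 ppm embryos (x axis), for KO against WT on 30 and 0.1 ppm and KO against HET on 3 ppm. With all libraries the lowly methylated class has the tallest bars, at 31.4, 49.0 and 45.7%, and the unmethylated and methylated classes stay under 5%.

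Within the tiles, single CpGs showed the same dependence on their own starting level. CpGs below 1% in WT 3 ppm embryos stayed low, with a mean of 1.77% in KO and 0.990% in WT embryos on 30 ppm (2704 CpGs). CpGs from 1 to 10% had 14.2% in KO and 6.45% in WT (6241 CpGs), those from 10 to 30% had 35.5% and 20.4% (8227 CpGs), and those from 30 to 50% had 55.35% and 39.3% (2629 CpGs). The difference narrowed again to 86.9% against 82.2% for CpGs at 70% or more (704 CpGs). On 0.1 ppm the differences over the same bins were 1.37, 10.8, 18.8, 19.7, 13.9 and 6.25 points, and for KO against HET on 3 ppm 1.30, 9.91, 17.1, 16.1, 11.2 and 4.33 points. With the 3 libraries left out, the differences were 1.08, 10.7, 20.4, 21.5, 16.5 and 6.595 points on 30 ppm and 1.44, 11.7, 21.3, 23.4, 17.4 and 7.70 points on 0.1 ppm. CpGs from 10 to 50% thus carried the widest gap on each diet, and CpGs near 0 the narrowest.

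**Figure D4:**
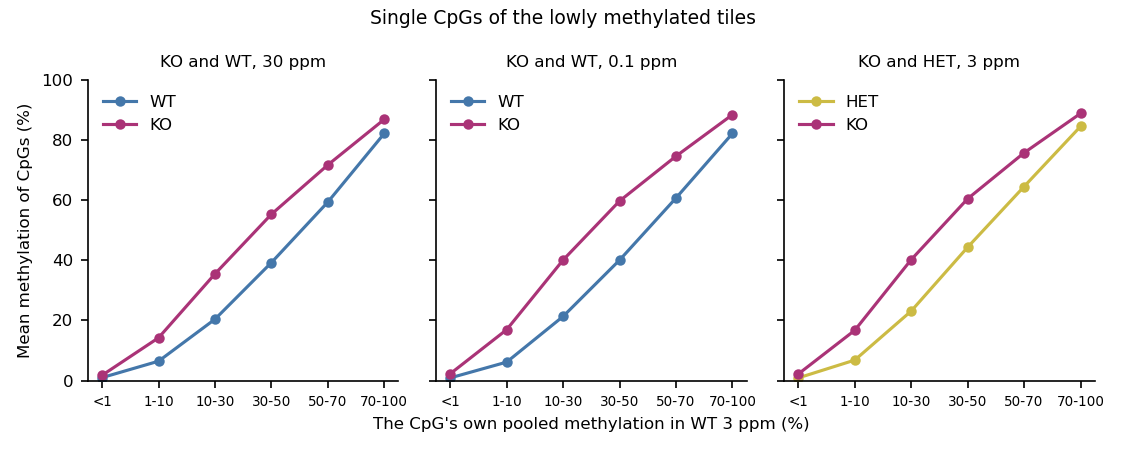
Mean methylation of the single CpGs of lowly methylated tiles (y axis, %) by the pooled level of the CpG in WT 3 ppm embryos (x axis, % in 6 bins), for KO and WT embryos on 30 and 0.1 ppm and KO and HET embryos on 3 ppm. Lines join group means, and the gap between KO and the other genotype is widest for CpGs from 10 to 50% and nearly closed below 1%.

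Among lowly methylated tiles, those in exons outside promoters had the largest differences. Their median was 14.6 points on 30 ppm, 17.1 points on 0.1 ppm and 15.4 points for KO against HET on 3 ppm, with 49.5, 65.6 and 62.9% of tiles hyper, and without the 3 libraries it was 20.04 points on 30 ppm and 19.8 points on 0.1 ppm. Promoter tiles had medians of 8.21, 10.8 and 9.60 points, intron tiles 8.04, 11.1 and 8.99 points, and intergenic tiles 9.04, 11.96 and 9.98 points. The medians of these without the 3 libraries were 11.8, 11.7 and 12.2 points on 30 ppm and 12.7, 12.3 and 12.95 points on 0.1 ppm. By position, tiles from 0 to 1 kb upstream of a start site had the smallest median, 6.26 points on 30 ppm and 7.72 points on 0.1 ppm, and 8.70 and 9.92 points without the 3 libraries. Those from 2 to 5 kb downstream had 12.03 and 16.2 points, and 16.9 and 17.95 points without the 3. These are descriptions of groups of tiles that share the same embryos.

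Tiles in which CpGs below 10% stood beside CpGs at 70% or more had medians of 4.53, 5.86 and 5.09 points in the 3 comparisons and 14.4, 28.4 and 22.2% hyper, and 7.06 and 7.16 points on 30 and 0.1 ppm without the 3 libraries. Tiles in which every CpG lay from 10 to below 70% had 12.02, 14.9 and 13.2 points and 36, 50.9 and 51.8% hyper, and 16.6 and 17.5 points without the 3 libraries. Tiles of 20 to 39 CpGs per kb had a median of 9.86 points on 30 ppm, against 7.96 points in tiles of lower and 8.02 points in tiles of higher CpG density. Tiles that touched an unmethylated tile had 7.96 points and the others 9.52 points. Tiles with under 10% repeat-masked sequence had 10.6 points, and those masked over 50% or more of their length (31 tiles) had 5.18 points on 30 ppm, 5.40 points on 0.1 ppm and 7.77 points against HET. On 30 ppm without the 3 libraries, the medians of the 3 groups by CpG density were 13.9, 11.48 and 11.53 points in the same order, those by neighbour 10.9 and 13.5 points, and those by repeat content 14.7 and 6.39 points.

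The tiles with the largest differences were ranked by the smallest of the differences in the 3 comparisons without shared embryos, and carry the name of the nearest protein-coding gene. The first 12 were Zfp467, Nars, Olfr153, Ksr2, Krt79, Card10, Npy, Dido1, Foxi2, Gm10647, Rtn4rl2 and Maf. These were chosen for calls and large differences in the same comparisons. Their p values and lack of overlap therefore follow in part from the choice. For several of the 12 the annotation over the tile is another one. The Nars tile lies over an untranslated exon of Atp8b1, the Olfr153 tile over the processed pseudogene Gm13736, the Card10 tile over the processed pseudogene Gm7318, and the Gm10647 tile within 1 kb of the pseudogene Ppp1r2-ps4. The Maf tile is intergenic, 348595 bases from the start of Maf. Reads from a pseudogene and its parent gene can be hard to tell apart.

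The tile in Zfp467, a zinc finger gene (chromosome 6, 48439001 to 48440000, exon and untranslated region), ranked first. On 30 ppm the KO embryos had 23.6 (replicate 1), 66.2, 69.9, 73.9, 75.7 and 82.3% and the WT embryos 7.31, 13.6 and 22.4%, a difference of 50.9 points (SE 9.66, quasi-binomial test, adjusted p = 0.0077). On 0.1 ppm the KO embryos had 79.6 to 89.5% (median 82.7%) and the WT embryos 8.71 and 44.1%, a difference of 57.0 points (SE 17.8, adjusted p = 1e-08). On 3 ppm the KO embryos had 78.7, 82.4, 84.2, 91.1 and 96.4% and the HET embryos 22.5, 28.5 and 39.6%, a difference of 56.4 points (SE 5.92, adjusted p = 1e-15). KO embryos lay above all others in each comparison, although KO 30 ppm replicate 1 exceeded the highest WT embryo by little. The SE is taken from the spread in each group, and the p from the dispersion shared in part over all tiles, so that a wide SE can stand beside a small p where a group holds 2 embryos.

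The promoter tile of Npy (chromosome 6, 49823001 to 49824000, with its middle 791 bases after the start of the gene) is the tile of the first sequence printed. On 30 ppm its KO embryos had 27.0 (replicate 1), 74.5, 77.6, 77.8, 81.0 and 81.4%, and its WT embryos 21.4, 21.6 and 41.9% (replicate 2). On 0.1 ppm the KO embryos had 63.0, 70.4, 74.7, 79.2 and 82.6%, and the WT embryos 16.7 and 30.1%. On 3 ppm the KO embryos had 70.1, 77.0, 78.3, 85.2 and 86.3%, and the HET embryos 21.7, 24.3 and 35.3%. The groups overlapped on 30 ppm through the libraries at odds with their labels and did not overlap elsewhere. The differences were 41.6 points (SE 11.0, adjusted p = 0.017), 50.6 points (SE 7.53, adjusted p = 4.9e-10) and 52.2 points (SE 5.11, adjusted p = 1.2e-15) in the quasi-binomial test.

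In the Ksr2 intron (chromosome 5, 117534001 to 117535000), the KO embryos had 19.5 (replicate 1) and 63.2 to 69.6% on 30 ppm, where the WT embryos had 6.86, 10.0 and 30.2%. On 3 ppm the KO embryos had 51.9, 56.3, 59.2, 61.0 and 62.5% and the HET embryos 14.9, 15.1 and 18.3%, so the groups did not overlap. The differences were 42.0 points on 30 ppm (SE 10.6, adjusted p = 0.013), 54.98 points on 0.1 ppm (SE 4.40, adjusted p = 6.9e-10) and 42.08 points against HET (SE 2.17, adjusted p = 1.2e-11).

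The tile of Rtn4rl2, a receptor of the Nogo receptor family that limits axon growth, lies in an intron (chromosome 2, 84882001 to 84883000). On 3 ppm it had 58.5, 61.5, 62.2, 66.7 and 76.5% in KO and 22.7, 26.7 and 26.7% in HET embryos (39.7 points, SE 3.404, quasi-binomial adjusted p = 1.6e-08). In the exonic tile of Dido1 the KO embryos on 0.1 ppm spanned only 76.9 to 79.1%, with 13.01 and 31.8% in WT (55.4 points, SE 9.40, adjusted p = 3.9e-12). In the promoter tile of Foxi2, a forkhead factor gene, the difference was 40.7 points on 30 ppm, 49.8 points on 0.1 ppm and 41.36 points against HET on 3 ppm. For the remaining tiles of the 12, the smallest of the 3 differences lay between 39.5 points (Maf, 30 ppm) and 45.61 points (Nars, 30 ppm). Without the 3 libraries the 12 tiles were again all called hyper on 30 ppm, by 53.9 points (Krt79) to 63.2 points (Zfp467). On 0.1 ppm, against a single WT embryo, the differences were 51.0 points (Olfr153) to 74.7 points (Zfp467). The 12 tiles were chosen for calls and large differences in these same comparisons, so this result follows in part from the choice.

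**Figure D5:**
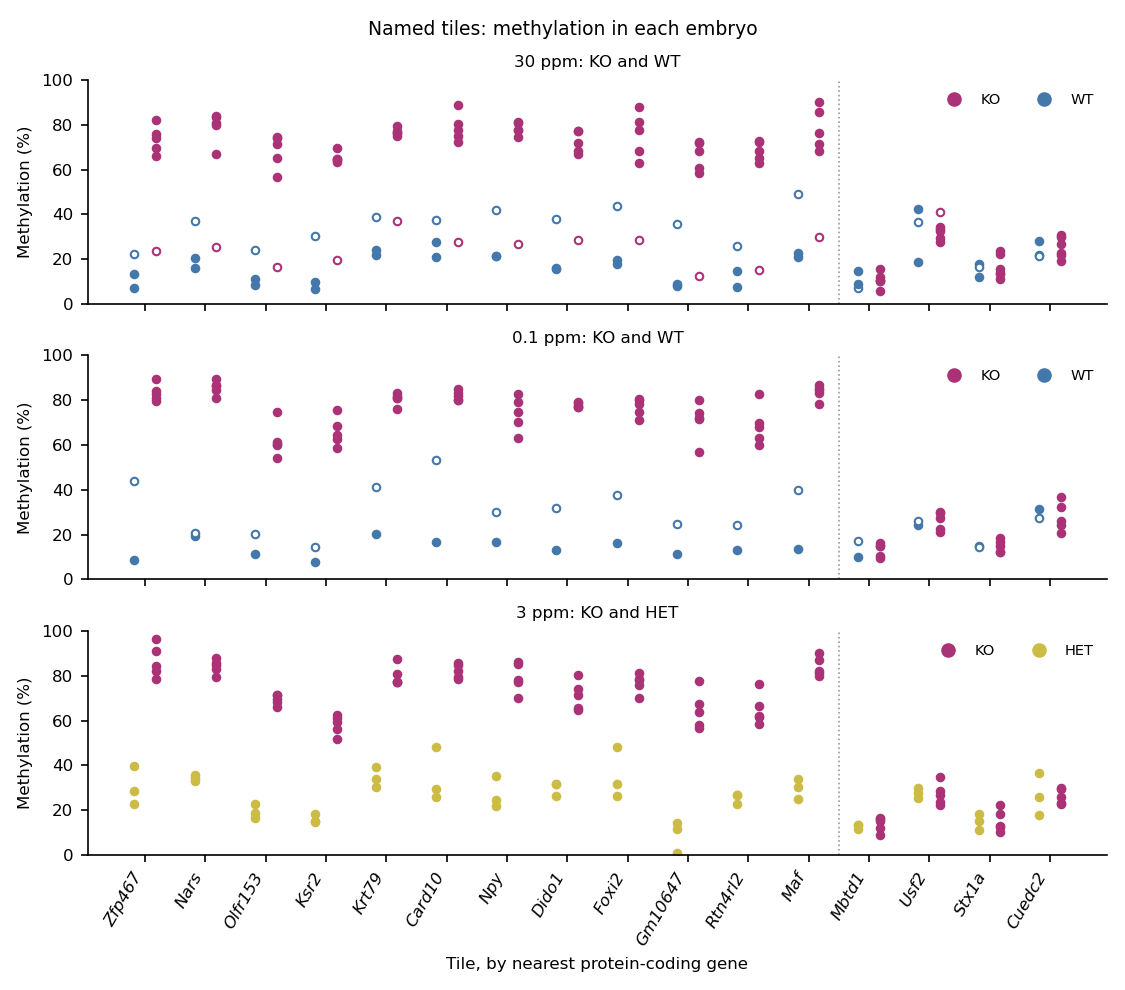
Methylation (y axis, %) of each embryo in the 12 tiles with the largest and, right of the dotted line, the 4 tiles with the smallest differences (x axis, by nearest protein-coding gene), for KO and WT embryos on 30 and 0.1 ppm and KO and HET embryos on 3 ppm. Open points are the 3 libraries at odds with their labels, and apart from these the KO embryos lie above 50% and the others below 50% in the 12 tiles, while the groups overlap in the other 4.

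At the other end, some tiles with deep coverage differed little between KO embryos and the other genotype in the 3 comparisons. In the promoter tile of Stx1a (chromosome 5, 135042001 to 135043000, 13 CpGs), the KO embryos on 3 ppm had 10.2, 12.4, 13.005, 18.1 and 22.1% and the HET embryos 11.1, 15 and 18.4%. The difference was 0.323 points (SE 3.02), and 1.31 points (SE 2.73) against WT on 30 ppm and 0.263 points (SE 1.22) on 0.1 ppm. The groups overlapped in full. The promoter tile of Usf2, a ubiquitous bHLH factor, differed by 0.626, 1.06 and -0.377 points, that of Mbtd1 by 0.326, -0.560 and 0.961 points, and the Cuedc2 tile by 1.41, -1.36 and -0.466 points. No test in these 4 tiles gave an adjusted p under the threshold. They were chosen for their small differences in these same comparisons, so this result follows from the choice. The differences of KO from WT in these 4 tiles without the 3 libraries lay between -3.22 points (Cuedc2, 0.1 ppm) and 2.86 points (Mbtd1, 0.1 ppm). The CpGs of the Mbtd1 tile were uneven, and a stretch of 7 of them stood at 1.259% in WT 3 ppm embryos where the tile stood at 10.7%.

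Tiles that were hypo in KO were few. The intron tile of Peli2 had the largest decrease in KO against WT, with KO embryos at 4.76, 13.3, 14.3, 14.3 and 30.6% and WT embryos at 33.3 and 34.07% on 0.1 ppm (-18.2 points, SE 4.21, quasi-binomial adjusted p = 0.0069, and -17.9 points without WT replicate 2, where a single WT embryo remained). Its HET embryos on 0.1 ppm had 6.49 and 21.0%. The promoter tile of Ergic3 was hypo in HET against WT on 0.1 ppm, with 10.0 and 15.2% in HET and 19.8 and 34.7% in WT (-14.7 points, SE 7.88, adjusted p = 0.0057), and in KO against WT on the same diet (-10.1 points, SE 9.22, adjusted p = 0.027). Neither call was made without WT 0.1 ppm replicate 2, at -7.22 and -0.919 points. The tile named for Rab10 lies over the antisense transcript Rab10os (chromosome 12, 3235001 to 3236000) and varied widely among embryos of a group. On 3 ppm its KO embryos had 11.1, 16.0, 17.4, 30.5 and 41.5% and its HET embryos 3.48, 6.77 and 8.19% (17.1 points, SE 5.76, adjusted p = 1.2e-05), while on 0.1 ppm it was lower in KO than in HET (-18.5 points, SE 5.59, adjusted p = 0.00055). The intron tile of Hrg was at 10.6 points (SE 3.93) against HET on 3 ppm and at -17.9 points (SE 9.15) on 0.1 ppm, both called. A difference between diets was not called in either tile: the interaction term of KO minus HET between 0.1 and 3 ppm was -34.2 points in the Rab10 tile and -28.5 points in the Hrg tile, each with an adjusted p of 0.999, and 2 HET embryos stood for the 0.1 ppm diet.

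Lists of genes by role were counted at promoter tiles, which overlap 1 kb to either side of the start of any annotated transcript of the gene. Such tiles can lie inside the gene, as with the Sema5b and Lhx3 stretches in a coding exon and an intron. Among all lowly methylated promoter tiles 31.4% (KO against WT, 30 ppm), 47.3% (KO against WT, 0.1 ppm) and 44.9% (KO against HET, 3 ppm) were hyper, and 53.8 and 49.2% on 30 and 0.1 ppm without the 3 libraries. The lists hold few such tiles and none was tested as a list. None of 101 covered promoter tiles of HOX cluster genes and none of 42 of sonic hedgehog pathway genes was lowly methylated, and all 101 HOX tiles were unmethylated. Of 199 tiles of brain patterning homeobox and PAX genes 1 was lowly methylated (Lhx3), of 54 of proneural and progenitor bHLH genes 1 (Heyl), and of 120 of WNT ligands, receptors and inhibitors 1 (Wnt7b). These shares of 0.503, 1.85 and 0.833% compare with 3.96% of all promoter tiles.

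Both of the neural regulators in that group were hyper in KO in each of the 3 comparisons. Both were also called on 30 and 0.1 ppm without the 3 libraries, by 30.2 and 25.6 points in Lhx3 and by 20.6 and 20.8 points in Heyl. The Lhx3 tile had 17.6 (replicate 1), 37.6, 38.9, 40.0, 45.32 and 47.0% in KO and 8.70, 14.4 and 20.3% in WT embryos on 30 ppm (23.3 points, SE 5.46, quasi-binomial adjusted p = 0.011). It differed by 23.7 points (SE 2.48, adjusted p = 1.9e-05) on 0.1 ppm and by 25.7 points (SE 2.70, adjusted p = 2.1e-08) against HET on 3 ppm. The tile of Heyl, a Notch target gene, differed by 13.8 points (SE 5.53, adjusted p = 0.022), 19.6 points (SE 2.17, adjusted p = 5.4e-05) and 18.4 points (SE 3.00, adjusted p = 1.9e-05). Wnt7b, a WNT ligand of the forebrain, had 9.41 points on 30 ppm (SE 3.96, adjusted p = 0.35) and 10.6 points on 0.1 ppm (SE 6.59, adjusted p = 0.37) over 3 CpGs and was not called, nor was it without the 3 libraries (13.3 and 14.8 points).

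Of the 95 tiles of mesoderm and muscle genes 4 (4.21%) were members, and 3 of these 4 were hyper in each comparison. They were Acta1 (skeletal muscle actin), with 32.1 points on 30 ppm, 40.0 points on 0.1 ppm and 35.9 points against HET on 3 ppm, Meox1 with 23.3, 27.8 and 28.0 points, and Twist2 with 17.9, 24.4 and 21.2 points. Tbx4 had 4.26, 8.67 and 6.61 points and was not called. Of 140 tiles of potassium and calcium channel genes 8 (5.71%) were lowly methylated, with 5, 5 and 6 of 8 hyper. Kcna5 had 32.2, 41.5 and 43.8 points, Cacna1e 29.2, 35.5 and 30.9 points, Kcnc1 25.9, 29.9 and 27.0 points, and Cacna1g 24.8, 21.1 and 24.1 points, while Kcnn1 had 6.41, 9.11 and 6.81 points and was not called. Leaving out the 3 libraries, the counts were 3 and 3 of 4 for the mesoderm and muscle genes and 5 and 6 of 8 for the channel genes on 30 and 0.1 ppm. With so few tiles, the counts describe these genes only.

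Of 124 tiles of axon guidance genes 6 tiles (4.84%) in 5 genes were lowly methylated, and 2 of 6, 2 of 5 and 3 of 5 tested tiles were hyper in the 3 comparisons. In the Sema5b tile (chromosome 16, 35660001 to 35661000) the KO embryos on 3 ppm had 56.9, 59.3, 63.6, 67.3 and 72.7% and the HET embryos 16.95, 17.9 and 21.1% over 47 CpGs, with no overlap (45.32 points, SE 3.09, quasi-binomial adjusted p = 5.5e-22). It differed by 35.1 points (SE 9.34, adjusted p = 0.013) on 30 ppm and by 52.0 points (SE 6.85, adjusted p = 9.1e-14) on 0.1 ppm. Of both Robo3 tiles, 1 was hyper on 30 ppm (23.1 points), the other on 0.1 ppm (17.3 points), and both against HET on 3 ppm (10.2 and 23.9 points). Sema3b had 7.25, 9.93 and 9.88 points and Ephb2 3.19, 5.94 and 9.89 points, neither called, and Epha8 had 17.9 points on 30 ppm (adjusted p = 0.050), not called. On 30 ppm the count rested on the 3 libraries, since without them 5 of 6 tiles were hyper, with both Robo3 tiles (21.2 and 27.8 points), Sema3b (14.6 points) and Epha8 (22.7 points) besides Sema5b (47.9 points).

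Of 32 promoter tiles of germline genes that are silenced by methylation in somatic cells 3 (9.38%) were lowly methylated, and 2 of them were hyper in each comparison. Spaca1, a gene of the sperm acrosome, had 43.6, 52.8 and 39.1 points, and Tdrd6, a Tudor gene of the chromatoid body, 17.2, 23.1 and 19.5 points, while Piwil1 had 8.75, 8.72 and 4.05 points and was not called. Of 76 tiles of imprinted genes 7 tiles (9.21%) in 5 genes were lowly methylated. The tile of Dlk1, a Notch ligand homologue, was hyper in each comparison with 23.7, 29.0 and 25.3 points. Grb10 was hyper on 0.1 ppm (14.6 points) and against HET on 3 ppm (21.7 points), and Mest against HET only (10.3 points). Of the 3 tiles of Cdkn1c, a cell cycle inhibitor, 2 had values in all 3 comparisons and differed by 1.02 to 5.54 points. They were not called against WT and fell under the filter on spread against HET. With the 3 libraries left out, 2 of 3 tested germline tiles were hyper on 30 and on 0.1 ppm, and 2 of 6 tested imprinted tiles on each, where Grb10 was called on 30 ppm as well (14.9 points).

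Of 49 promoter tiles of DNA methylation and demethylation enzymes 2 (4.08%) were lowly methylated, and neither was called. Uhrf2 had 2.69 points on 30 ppm (SE 1.74), 5.36 points on 0.1 ppm (SE 3.12) and 6.79 points against HET on 3 ppm (SE 1.63, quasi-binomial adjusted p = 0.0090, under the minimum difference), and Idh1 5.40 and 10.9 points on 30 and 3 ppm. Values are given for 2 genes of folate transport and one-carbon metabolism. Gnmt, which consumes S-adenosylmethionine, had 7.96 points on 30 ppm (SE 3.69, adjusted p = 0.10), 5.86 points on 0.1 ppm and 3.93 points against HET. It was not called in these, but without the 3 libraries it was on 30 ppm (12.2 points, adjusted p = 0.00024). Aldh1l2 had 1.92, -8.45 and 10.2 points and was not called in any of the 3 comparisons.

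HET embryos were compared with WT embryos to ask whether 1 copy of Tet1 was enough at these tiles. On 30 ppm none of 2115 tested lowly methylated tiles was called, where 0% of all tested tiles were hyper, and none by limma. An unadjusted quasi-binomial p under 0.05 with a difference of at least 10 points was found in 33, and in 638 of all 64629 tested tiles. With litter as a block 5 were called. The median difference was 1.06 points over 2221 tiles, with 64.8% higher in HET, and 0.0893 points over all tiles. Without WT 30 ppm replicate 2, 104 were hyper and 1 hypo of 2045 tested, with a median of 3.10 points and 81.6% higher in HET, where 0.931% of all tested tiles were hyper. Within the tiles, CpGs from 30 to 50% differed by 3.24 points and those below 1% by -0.133 points on 30 ppm, and by 6.04 and 0.0102 points without WT replicate 2.

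On 0.1 ppm 13 of 2134 tested tiles were hyper in HET and 2 hypo, where 0.0846% and 0.00781% of all tested tiles were, with a median of 2.07 points over 2355 tiles and 68.5% higher in HET, and limma called 3. Both groups held 2 embryos in this comparison, and all tiles shared 1 dispersion. None of 2355 tiles was called with no filter on spread, and none of 1681 with a dispersion estimated over all 35 embryos. Without WT 0.1 ppm replicate 2, 91 were hyper and 3 hypo of 2015, with a median of 3.77 points and 0.7% of all hyper. Without WT 0.1 ppm replicate 1, 9 were hyper and 15 hypo of 1957, so that the balance of directions turned with the WT embryo kept. A single WT embryo remained in each case and was assumed to vary like the HET embryos. On 3 ppm the HET embryos stood 3.95 points (SE 0.536) above the WT embryos in mean level, which is a description because these WT embryos chose the tiles as low.

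The tiles named for their gain in HET on 0.1 ppm varied strongly among WT embryos. The tile nearest to Gata3 lies over the pseudogene Gm13217 and had 53.9 and 62.3% in HET and 3.81 and 39.8% in WT embryos (36.31 points, SE 18.5, quasi-binomial adjusted p = 7.3e-06). The exonic tile of Actn1 had 44.3 and 46.1% in HET and 1.27 and 31.5% in WT (28.8 points, SE 15.2, adjusted p = 1.6e-21). The Rab10 tile had 37.4 and 37.5% in HET and 8.79 and 24.6% in WT (20.8 points, SE 7.88, adjusted p = 4.3e-14). All tiles shared 1 dispersion in this comparison, so these adjusted p do not reflect the spread of the single tile. Over the 32 embryos without the 3 libraries, the Actn1 and Rab10 tiles each had an SD within groups of 10.3 points, against a median of 4.92 points. The groups did not overlap, but in the Gata3 and Actn1 tiles the pair of WT values lay about as far apart as the group means did. Without WT replicate 2, the lower of the pair in all 3 tiles, the differences were 18.3, 13.6 and 13.5 points. Among the 12 tiles named first, the Nars tile was also hyper in HET on 0.1 ppm, with 33.9 and 39.7% against 19.4 and 23.7% (15.3 points, SE 3.63, quasi-binomial adjusted p = 0.0023). Without WT replicate 2 the differences of the 12 on 0.1 ppm ran from -2.66 points (Gm10647) to 32.6 points (Card10), against a single WT embryo. On 30 ppm Zfp467, Nars, Npy, Dido1, Rtn4rl2 and Maf were hyper in HET only without WT 30 ppm replicate 2, by 10.8 (Dido1) to 19.9 points (Nars).

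Between diets, no lowly methylated tile passed the test within KO embryos. For 30 against 3 ppm, 0 of 2073 tested tiles were called, where 0% of all tested tiles were, and 0 by limma. At an unadjusted quasi-binomial p under 0.05 and a difference of at least 10 points there were 114, all lower on 30 ppm. Of all 64989 tested tiles 728 passed these limits. The 114 were not recounted without KO 30 ppm replicate 1. The median difference was -3.06 points, and 19.5% of tiles were higher on 30 ppm. Without KO 30 ppm replicate 1 the median was -1.28 points and again no tile was called. For 0.1 against 3 ppm, 0 of 2018 tested tiles were called, where 0% of all were, with a median of -0.0224 points. The same unadjusted limits were passed by 48 of them and by 436 of all 59941 tested tiles. In HET embryos 2 tiles were hyper and 1 was hypo for 30 against 3 ppm, where 0.0201% of all tested tiles were called, with a median of -0.657 points, and limma called none. One of them was the Rab10 tile, with 15.8, 16.3, 25.98, 27.7 and 36.304% on 30 ppm and 3.37, 6.77 and 8.37% on 3 ppm (18.3 points, SE 4.11, quasi-binomial adjusted p = 4.8e-07).

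Whether the genotype differences themselves varied with diet was asked with an interaction term. None of 2007 tested lowly methylated tiles was called for KO minus WT between 30 and 0.1 ppm, none of 2027 for KO minus HET between 30 and 3 ppm and none of 1992 for KO minus HET between 0.1 and 3 ppm, where 0% of all tested tiles were called in each. At an unadjusted quasi-binomial p under 0.05 and a difference of at least 10 points there were 60, 74 and 75 tiles, and limma called 0 in each. Over all tested tiles 1205 of 58185, 993 of 61465 and 1246 of 58913 passed these limits. The median interactions were -2.92, -2.38 and -0.260 points. Without the 3 libraries at odds with their labels the first 2 of these were -0.938 and -0.512 points. The higher counts of hyper tiles on 0.1 and 3 ppm than on 30 ppm with all libraries are not shown to be a difference between diets. Without the 3 libraries the count on 30 ppm was 1238 of 2138, and the count on 3 ppm is against HET embryos.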

How the data were processed

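Oxidative bisulfite RRBS libraries of 36 single embryos were analysed. Per the submitters' processing notes, tools used by the authors included Trim Galore 0.6.10, Bismark 0.24.1, UMI-tools, methylKit 1.26.0, ChIPseeker 1.36.0 and bedtools 2.31.0, with mm10. The deposited files of each library list CpGs with the methylated fraction and the read count, at least 2 reads each. Methylated read counts were recovered as the fraction times the count. The deposited lists of differentially methylated regions hold the authors' comparisons and were not used. Depth was 23.2 to 197.3 M CpG calls per library (mean coverage 10.9 to 61.5 reads), and tile levels carry counting error besides the spread between embryos. All of 2894759 CpG positions checked were CG in GRCm38, and features came from GENCODE.

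CpGs with at least 5 reads in all embryos of a comparison were summed in 1 kb tiles. Tiles with at least 3 such CpGs and a standard deviation of at least 2 points were tested by a quasi-binomial logistic model of methylated and unmethylated reads (R 4.3.3), with an F test, dispersion moderated with limma 3.58.1 and held at 1 or above, and Benjamini-Hochberg adjustment over all tested autosomal tiles. Calls needed an adjusted p below 0.05 and a difference of at least 10 points. Medians were taken over all tiles with 3 shared CpGs. The procedure was tested on simulated data. Python 3.11.15 with pandas 2.3.3 and scipy 1.17.1 was used otherwise.

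Named tiles were, by rule, the 12 with the largest smallest difference among those hyper in each of the 3 comparisons without shared embryos (1 per nearest gene, none on chromosome 10 between 58 and 74 Mb around Tet1, where 9 tiles lie), the 4 largest hypo calls, the 4 least changed tiles with at least 10 CpGs and 200 reads per embryo, the promoter tile with the largest difference of each gene list, the 3 largest gains in HET, and the tiles beside the limits. Other genes in the text are further tiles of these lists, some of which are not reported here. The tiles, lists and comparisons were chosen with earlier results of these data known. Alternatives were other coverage, membership, difference and spread limits, limma on transformed levels, a shared dispersion, litter as a block, taken from the litter labels, and leaving out each embryo. Leaving out the 3 libraries at odds with their labels was chosen after seeing the data.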

Additional observations from a re-analysis of the deposited data

Results flagged for a closer look

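In groups of 4 to 10 embryos, a value was singled out where its gap to the nearest other embryo exceeded Dixon's 95% critical value for the range of its group. Of 138 groups checked 23 had such a value. Chance gives about 5% in independent groups, but these share embryos, and many of the tiles were chosen for their gain in KO. The library labelled KO 30 ppm replicate 1, whose CpG in Tet1 lay in the HET range, made up 18 of the 23. These 18 are not independent observations of that library.

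Its mean level over the lowly methylated tiles was 20.3% (nearest other KO embryo 31.9%), with 16.7% of tiles at 30% or more (nearest 49.8%) and 13.7% below 10% (nearest 7.21%). In single tiles it had 31.1% in Acta1, 27.8% in Card10, 28.7% in Dido1, 12.5% in Gm10647, 20.7% in Kcna5, 37.0% in Krt79, 19.5% in Ksr2, 17.6% in Lhx3, 29.8% in Maf, 25.4% in Nars, 27.0% in Npy, 16.7% in Olfr153, 15.2% in Rtn4rl2, 16.98% in Sema5b and 23.6% in Zfp467, in each case below the other 5 KO embryos. Values without it, together with the other 2 libraries at odds with their labels, are given beside most results it enters.

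The other 5 values were in different libraries. WT 3 ppm replicate 3 had 9.03% of tiles at 30% or more (nearest 7.00%), KO 3 ppm replicate 2 had 94.0% in the Gata3 tile and 67.3% in the Spaca1 tile, HET 30 ppm replicate 3 had 20.5% in the Heyl tile, and HET 30 ppm replicate 1 had 22.3% in the Kcna5 tile.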

How the results depend on the processing

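Of 369 counts and group levels recomputed under other settings, 285 stayed within the limits set (1.5 times for a count, 1 SD for a level) and 84 moved. A minimum difference of 20 points gave 362 (KO against WT, 30 ppm), 619 (KO against WT, 0.1 ppm), 310, 497 and 482 (KO against HET, 30, 3 and 0.1 ppm), 3 (HET against WT, 0.1 ppm) and 0 calls (HET, 30 against 3 ppm). limma gave 0 and 725 against WT on 30 and 0.1 ppm, 410 and 442 against HET on 30 and 0.1 ppm, 3 for HET against WT on 0.1 ppm and 0 for HET between diets. Membership from 15 to below 25% gave 325, 522, 359, 478 and 464 calls. Without the 3 libraries at odds with their labels there were 1241 calls for KO against WT on 30 ppm, 105 for HET against WT on 30 ppm and 94 on 0.1 ppm.

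With litter as a replicate block the calls for HET against WT on 30 ppm went from 0 to 5, and no other count with the block (599, 969, 589, 957 and 872 for KO) moved by over 1.5 times. The block was not run for HET against WT on 0.1 ppm and the comparisons between diets. For HET against WT on 0.1 ppm, 5 CpGs per tile gave 9 calls, no minimum difference 23, no filter on spread 0, a shared dispersion 0, and HET replicate 2 included 23. For HET between diets, 10 reads per CpG gave 6, no minimum difference 8, no filter 0 and a shared dispersion 0.

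Mean levels on 30, 3 and 0.1 ppm in HET were 19.8, 20.6 and 21.3% with 10 reads, 22.0, 22.9 and 23.5% with membership from 15 to below 25%, 21.6, 22.4 and 23.1% with membership from replicates 2 to 4, and 22.2, 22.8 and 23.6% over each embryo's own CpGs. Unweighted HET on 0.1 ppm was 22.4%. WT on 3 ppm was 16.7, 18.5, 18.3 and 18.9% in the first 4 of these, and KO on 0.1 ppm was 36.32, 35.44 and 35.203% in the last 3 and 33.6% with equally weighted membership. KO on 3 ppm was 36.1% with membership from 15 to below 25%. With 500 bases as promoter limit, 40.0% of tiles were in promoters, 16.0% in exons and 20.04% in introns.

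Leaving out each embryo in turn gave 2 (without WT replicate 1) to 1052 calls (without KO replicate 1) for KO against WT on 30 ppm, 748 to 1144 on 0.1 ppm, 595 to 1046, 895 to 1031 and 736 to 983 for KO against HET on 30, 3 and 0.1 ppm, 0 to 105 and 5 to 94 for HET against WT on 30 and 0.1 ppm, 0 to 0, 0 to 3 and 4 to 14 for KO 30, KO 0.1 and HET 30 against 3 ppm, and 0 for the interactions. Group means ranged over 17.2 to 20.5, 20.4 to 20.8 and 30.2 to 32.8% (WT, HET, KO on 30 ppm), 17.2 to 17.7, 21.0 to 21.7 and 33.7 to 34.4% on 3 ppm, and 17.9 to 21.6, 21.9 to 22.1 and 34.07 to 34.4% on 0.1 ppm.

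Of 4004 values of named tiles, 3819 stayed, 128 lost and 55 gained the call, and 2 turned direction. Both are the removal of WT replicate 2 from Zfp467, HET against WT, 0.1 ppm, alone or with the other 2 libraries, which took it from -0.0445 to 14.4 points, and without WT replicate 1 it was -14.5 points. Groups of 2 or 3 embryos and the 3 libraries limit what the tests can show.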

Other observations

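The spread among embryos of the same group was wider in some lowly methylated tiles than in others. Over the 32 embryos without the 3 libraries at odds with their labels, the median standard deviation within groups was 4.92 points over 1915 tiles, and 28 tiles exceeded 10 points. Read counts alone would give a median of 3.35 points, and 1.88 (Rab10os) to 4.49 points (Slc7a5) in the tiles named next. These were picked from the upper end of the ranking by standard deviation within groups after their values were seen, as a description. A tile in an intron of Afg1l, whose nearest start site of a coding gene is that of Foxo3 (chromosome 10, 42338001 to 42339000), ranged from 7.69 to 61.4% over the embryos, with 12.6 points within groups over 7 CpGs. An intron tile of Slc7a5, a transporter of large neutral amino acids, had 11.6 points within groups. The tile over Rab10os had 10.3 points within groups over 21 CpGs and the exonic tile of Actn1 10.3 points over 18 CpGs, and both were among the calls in HET embryos on 0.1 ppm. An intergenic tile nearest to Slc19a2, a thiamine transporter gene, also had 10.3 points, and 97.1% of it was repeat-masked.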
